A study of Mus musculus with 9 samples.

Results

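Sense-intronic lncRNAs are non-coding genes that the GENCODE annotation places inside an intron of a protein-coding gene and on the same strand. The rows of the lung expression table with this gene type in GENCODE M21 (mouse, GRCm38) and a mean of at least 0.1 FPKM (fragments per kilobase of transcript, scaled to the mapped fragments of the library) over the 9 libraries were taken, and each was set beside the summed FPKM of its host, the coding gene that contains it. The table held 140 of the 327 annotated sense-intronic genes among its 60108 rows, and 136 had the minimum mean. The last of the 4 left out had a mean of 0.0997 FPKM (Gm26968), and the lowest of the 136 had 0.213 (Gm42463). Of the 136, 135 lay in a coding gene of their strand, while Gm33248 did not. The hosts Gm20696 and Gm20537, of Gm20705 and Gm28229, were not among the genes analysed here, so 133 lncRNAs could be set against 128 distinct hosts.

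An intron is transcribed as part of the pre-mRNA, is cut out as a lariat, and is then usually opened by the debranching enzyme and degraded in the nucleus. A library made from total RNA therefore holds reads of unspliced and excised introns besides reads of mature mRNA. Few sense-intronic lncRNAs have a known function, and reads in the interval of such a gene can come from its own transcript or from the intron of the host around it. Both lie on the same strand, so that even strand-specific counting cannot tell them apart.

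The lungs came from male C57BL/6 mice aged 6 to 8 weeks, with 3 libraries in each of 3 groups. Control mice were intubated without being ventilated. The other groups were ventilated for 4 hours with breaths of 20 ml per kg of body weight, a model of ventilator-induced lung injury (VILI), and were killed 0 hours (VILI 0 hours) or 6 hours (VILI 6 hours) after it. Anaesthesia was by ketamine and xylazine, with pancuronium as muscle relaxant during ventilation, and the sources used here do not say whether the controls received pancuronium. Libraries were made from total RNA depleted of rRNA, so RNA without a poly(A) tail could be sequenced. The sample records name a TruSeq RNA kit and the methods name a directional NEBNext kit, so it is uncertain whether strand was kept. The study gives as many mice as libraries in each group, so each library is taken as a separate mouse.

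The markers that define lung were present in all 9 libraries, where 5 alveolar type 2 markers summed to between 11894 and 14879 FPKM and none was at 0. Of these 5, Sftpa1 was higher at 0 hours and Lamp3 lower at 6 hours (limma, unadjusted P under 0.05). The sum of 5 neutrophil markers lay between 45.1 and 52.6 FPKM in control libraries, between 539 and 983 at 0 hours and between 442 and 1883 at 6 hours, and all 5 were higher at both times. Of 4 alveolar type 1 markers 2 were higher at both times, of 4 alveolar macrophage markers 2 were higher at 0 hours, and of 4 B cell markers 1 was lower at 0 hours and 3 at 6 hours. Endothelial, T cell, cardiac muscle and erythroid markers gave no call against control, and 1 of 4 club and ciliated markers was lower at 6 hours. From 0 to 6 hours 2 of 3 erythroid, 2 of 4 alveolar macrophage and 1 of 4 B cell markers were lower. All 3 erythroid markers were lowest in VILI 6 hours library 1. There Hba-a1 was at 136 FPKM, against 924 and 934 in VILI 6 hours libraries 2 and 3 and 777 to 1032 in control. In bulk lung, fewer cells of a type and less RNA per cell cannot be told apart, and the part of a changed cell mixture in the results below was not tested. The files hold FPKM without read counts, and the read totals in the study's mapping statistics were not used here, so no counting error is given.

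The ends of 6 of these RNAs are shown because a separate transcript needs a 3′ end of its own. A cleaved and polyadenylated RNA usually carries the hexamer AATAAA shortly before its end, whereas a stretch of intron need not. The last 60 bases of the annotated transcript are given 5′ to 3′ from the GENCODE M21 transcripts for both members with the highest levels outside a small RNA and for 4 of the 10 with the smallest adjusted p of the ratio to the host at 0 hours. Capitals mark AATAAA in Peg13 and, in Gm43707, a stretch of 20 bases that resembles the B1 repeat, a mobile element common in mouse introns.
Peg13: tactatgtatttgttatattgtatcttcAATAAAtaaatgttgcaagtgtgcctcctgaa
Gm42664: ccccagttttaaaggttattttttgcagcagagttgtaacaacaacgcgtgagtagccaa
Gm43707: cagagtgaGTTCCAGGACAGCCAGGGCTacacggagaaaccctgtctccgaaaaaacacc
Gm12122: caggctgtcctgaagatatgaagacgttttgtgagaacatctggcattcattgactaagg
Gm12701: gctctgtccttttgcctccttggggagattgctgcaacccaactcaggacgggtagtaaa
Gm13380: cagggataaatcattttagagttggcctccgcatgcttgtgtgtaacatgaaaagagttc

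Peg13 lies at chr15:72805600-72810324 (GRCm38, minus strand) in the last of the 17 introns of Trappc9, and Gm42664 at chr3:119743208-119746446 (minus strand) in intron 7 of Ptbp2. Gm43707 (chr3:144493986-144497172, minus strand) and Gm12701 (chr4:100119621-100120841, plus strand) lie in the first introns of Hs2st1 and Ror1. Gm12122 (chr11:35350069-35350785, plus strand) lies in intron 4 of Slit3 and Gm13380 (chr2:20921860-20931389, minus strand) in intron 2 of Arhgap21. Of the 6 ends shown, only that of Peg13 holds the hexamer. It stood in the last 50 bases of the longest transcript, on its own strand, for 29 of the 136 members (21.3%). The share was 21.4% of all 327 annotated sense-intronic genes, 21.8% of TEC genes (transcribed loci that still await experimental evidence), 31.4% of lincRNAs, 33.4% of antisense lncRNAs, 59.3% of all coding genes and 63.3% of the 128 hosts. The repeat stretch marked in Gm43707, chosen after the end of Gm43707 had been seen, was found on either strand in 10 members (7.35%), against 5.81% of all annotated sense-intronic genes, 3.98% of TEC genes, 1.49% of lincRNAs, 1.69% of antisense lncRNAs and 2.25% of coding genes. Median transcript lengths were 988.5, 979, 1959, 984, 847 and 2684 bases in these sets, and a match describes the letters only. No hexamer other than AATAAA was counted, and whether a member has a 3′ end of its own was not tested.

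Most members filled a small piece of a long intron. The median member had 1014.5 exonic bases, and 62 of 136 had 1 exon. Of all members, 115 lay within 1 intron of the longest coding transcript of the host, 44 of them in the first intron and 71 in a later one, and these introns had a median length of 18430 bases (472 to 273314). No member shared a base with an exon of a coding transcript of the host, and 3 (Gm44836, Gm45311 and Gm28967) shared some with an exon of another host transcript. Chromosomes 3, 5 and 1 held 63 of the 136 members, and 136 of the 327 annotated genes.

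Levels were low. The mean over 9 libraries had a median of 1.19 FPKM over the 136 lncRNAs, 83 reached 1 FPKM and 2 exceeded 10. The highest level was that of Gm28967, at 1209, 1194 and 1382 FPKM in control, 1498, 1216 and 1064 at 0 hours and 711, 1408 and 1894 at 6 hours, with overlapping groups. All 281 bases of its interval are annotated on the same strand as Scarna10, a small Cajal body RNA of the class that guides modification of spliceosomal RNAs, so reads of both cannot be told apart, and its host Ncapd2, a condensin subunit, was at 3.48, 4.84 and 3.50 FPKM in control.

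Peg13, an imprinted non-coding RNA, followed with 28.7, 29.8 and 27.4 FPKM in control, 33.1, 32.4 and 31.7 at 0 hours and 29.6, 29.1 and 27.2 at 6 hours. It stood at 250%, 254% and 271% of its host Trappc9, a vesicle-tethering subunit, in control, and at 303%, 324% and 304% in VILI 0 hours. The values in VILI 0 hours were all above those in control, but neither the level (log2 change 0.18 with an SE of 0.08, limma adjusted p = 0.478) nor the ratio (log2 change 0.26 with an SE of 0.18, adjusted p = 0.278) passed the test. Peg13 and Gm28967 were the only members above their host in control by the group mean, and 74 of 133 were below 10% of it.

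Gm42664, inside the splicing repressor gene Ptbp2, kept close to its host in each library. It was at 9.15, 10.03 and 9.37 FPKM in control, 12.1, 6.56 and 7.02 at 0 hours and 7.69, 11.9 and 13.7 at 6 hours. As a share of Ptbp2 this was 42.4%, 48.4% and 41.4% in control, 44.1%, 44.0% and 40.8% at 0 hours and 44.9%, 45.02% and 40.6% at 6 hours, so the groups overlapped and spanned a narrow range, although the FPKM varied within groups. Gm17024 in Ifrd1, Gm42659 in the actin-capping gene Capza1 and Gm17491 in the phosphate transporter gene Slc20a2 also gave no change of the ratio at either time by P under 0.05. Gm44836, which shares 73 bases with an exon of a transcript of Cebpg, a C/EBP-family factor, was at 2.54, 2.83 and 2.62 FPKM in control, 4.12, 2.59 and 3.97 at 0 hours and 1.86, 6.71 and 7.44 at 6 hours, with VILI 6 hours libraries 2 and 3 above all others (log2 level change at 6 hours 0.75 with an SE of 0.48, adjusted p = 0.518). The ratio of B930095G15Rik to Farp1, an exchange factor of small GTPases, fell at 0 hours, and its share of the host was 18.5%, 21.4% and 17.7% in control, 13.6%, 11.1% and 13.0% at 0 hours and 15.8%, 16.3% and 19.0% at 6 hours (log2 ratio change at 0 hours -0.60 with an SE of 0.20, limma adjusted p = 0.0457).

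**Figure D1:**
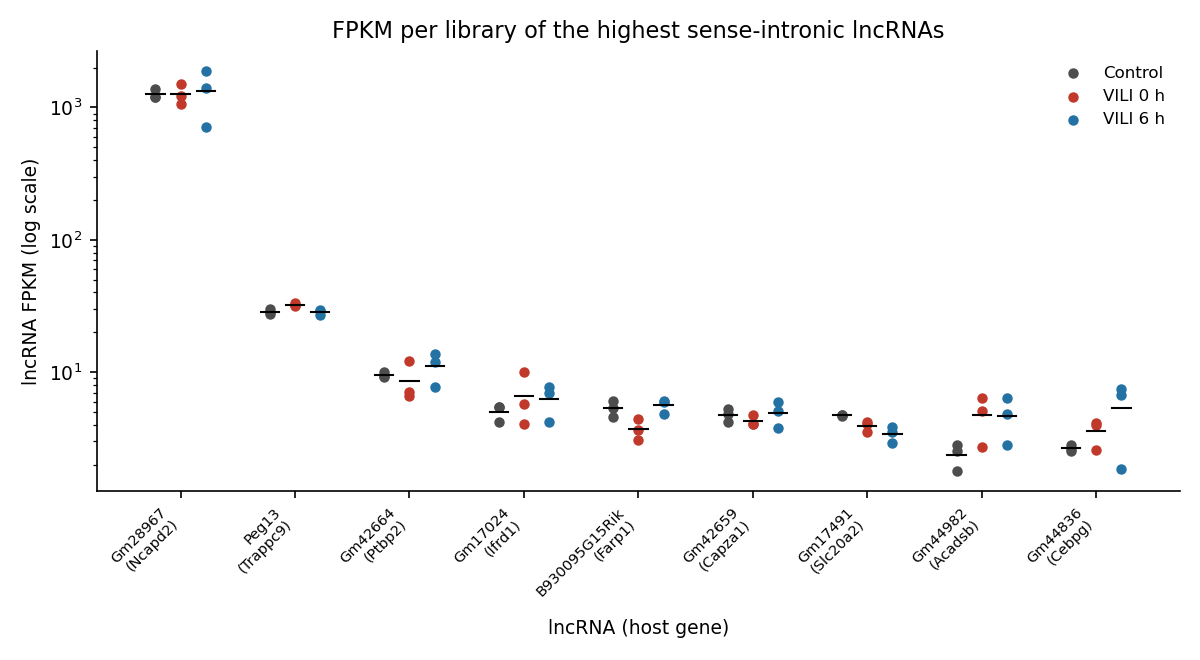
FPKM (log scale) of 9 of the 10 sense-intronic lncRNAs with the highest mean, each with its host in brackets; points are libraries, 3 per group, and lines are group means. Gm28967 lies above 700 FPKM in all 9 libraries and Peg13 between 27.2 and 33.1, while the other 7 lie between 1.79 and 13.7.

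Changes below are called at an unadjusted P under 0.05, and each p-value given for a gene is the Benjamini-Hochberg adjusted p of the limma fit over all rows, genes or pairs. The design asks how the lungs differ from control directly after ventilation and 6 hours later, and between both times. At 0 hours most sense-intronic lncRNAs had lower values than in control, while the median of their hosts moved little. In the study's mapping statistics the share of spliced reads was higher in every VILI 0 hours library than in every control library and overlapped control at VILI 6 hours, and its part in these results was not tested. Over the 133 pairs the median FPKM of the lncRNAs was 1.47, 1.58 and 1.27 in the control libraries, 0.901, 0.927 and 0.839 in VILI 0 hours and 1.13, 1.03 and 1.09 in VILI 6 hours. The median FPKM of their hosts was 16.7, 16.5 and 16.6, then 15.6, 15.9 and 15.8, then 16.8, 15.1 and 13.7. The median share of the host was 9.47%, 10.4% and 8.35% in control, 6.89%, 6.24% and 6.69% in VILI 0 hours and 8.27%, 7.35% and 8.92% in VILI 6 hours. In this share the 3 VILI 0 hours libraries lay below all control libraries, and the VILI 6 hours libraries lay above those of VILI 0 hours and overlapped control. The median lncRNA FPKM at 6 hours lay between the other groups, below control without overlap. The host medians at 6 hours ran from above control to below VILI 0 hours.

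**Figure D2:**
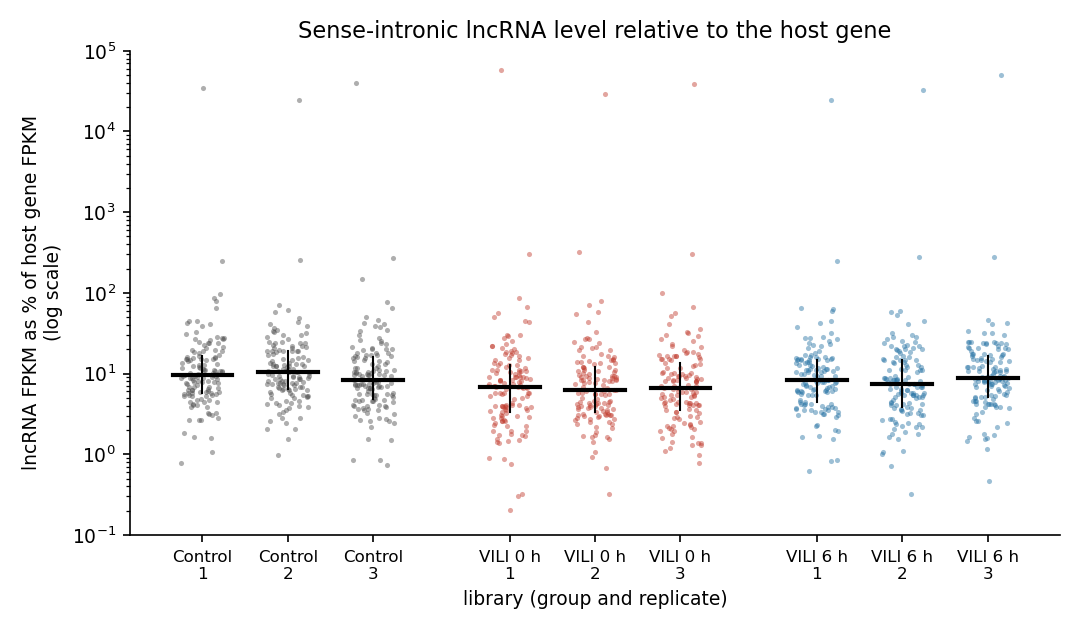
FPKM of each of the 133 lncRNAs as a percentage of the summed FPKM of its host (log scale) in each of the 9 libraries; points are lncRNAs, thick bars are medians, thin lines span the quartiles, and 2 values of 0 are not drawn. The medians lie between 8.35% and 10.4% in control libraries, between 6.24% and 6.89% at 0 hours and between 7.35% and 8.92% at 6 hours, and the points near the top are Gm28967.

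At 0 hours after ventilation, 55 of the 136 lncRNAs were lower and 2 were higher than in control at an unadjusted P under 0.05 (limma on log2(FPKM + 0.1)), where 6.31% of all 37300 rows tested were lower and 4.71% higher. The 2 higher were Gm44982 in Acadsb and Gm44366 in Gpr19. None passed the Benjamini-Hochberg adjustment over all rows, where the lowest adjusted p was 0.154, and 0.0509% of all rows passed. The median log2 change was -0.54, and 122 of 136 estimates were negative, while the median over all rows was -0.08. In 73 lncRNAs all VILI 0 hours libraries lay below all control libraries, against 15.6% of all rows. The 521 lncRNAs of the class TEC, 433 of them within 1 intron of a gene on their strand, gave 202 lower, 7 higher and a median of -0.51. The 453 lincRNAs, a class named for lying between genes although 8 lay inside a coding gene of their strand, gave 36 lower, 22 higher and a median of -0.15. With each library centred on its own median, 45 members were lower and 3 higher, and the median log2 change was -0.42. The count of 57 fell to 35 without control library 1 and to 37 without control library 2.

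The hosts changed about as often as other coding genes. Of 128 hosts, 14 were lower and 7 higher at 0 hours, where 9.35% of all 19378 genes were lower and 6.81% higher, and the median log2 change was -0.10 against -0.07 over all genes. With centred libraries 8 were lower and 9 higher, with a median of 0.01. The count of 21 fell to 13 without control library 2. Of the 133 pairs, 87 had both estimates negative, 32 had a lower lncRNA and a higher host, 10 had both higher and 4 had a higher lncRNA and a lower host. The lncRNA estimate lay below that of the host in 118 pairs. In 43 pairs the lncRNA passed P under 0.05 and the host did not, and in the 13 pairs where both passed the directions were the same. Of the 466 TEC pairs, 429 had the lncRNA estimate below that of the host. In 144 TEC pairs the lncRNA passed and the host did not, and 51 of the 53 where both passed had the same direction. Pearson's r between both log2 changes was 0.54 across the 133 pairs, which share libraries and are not independent.

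The ratio was then tested in its own fit, as the log2 of (lncRNA + 0.1) over (host + 0.1) FPKM, across the 639 annotated lncRNAs of the table inside a coding gene of their strand. At 0 hours 56 of the 133 sense-intronic ratios were lower and 1 (Gm44366 to Gpr19) was higher at an unadjusted P under 0.05, and 31 were lower at an adjusted p under 0.05. Over all 639 pairs 39.7% were lower, 0.469% were higher and 22.4% passed the adjustment, so the shares among the members were near those of all pairs. The median log2 ratio change was -0.47, a fold of 0.719, for the 133 members and also -0.47 for the 466 TEC pairs, of which 189 were lower and 2 higher. With a pseudocount of 1 in place of 0.1 FPKM the median of the members was -0.20, and 38 were lower and none higher. The TEC genes lie in 411 hosts, and 8 of the 128 hosts are shared. In 63 members the groups did not overlap with VILI 0 hours lower, against 51.5% of all pairs. The host itself passed in 11 of the 56. The count of 57 held between 41 and 58 when each library was left out, while the count of adjusted calls fell from 31 to 0 without control library 1, control library 2 or VILI 0 hours library 1, to 10 without control library 3 and to 18 without VILI 0 hours library 3.

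**Figure D3:**
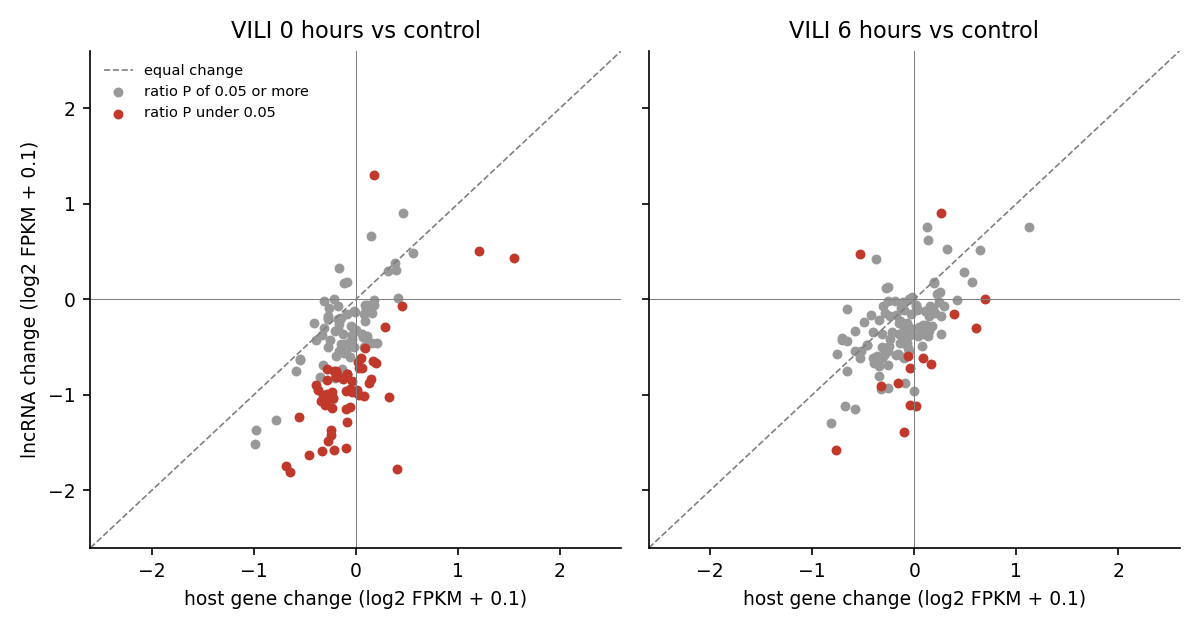
Log2 change of each lncRNA (vertical axis) against that of its host (horizontal axis) at 0 hours and at 6 hours against control, on log2(FPKM + 0.1); each point is 1 of 133 pairs, red where the ratio had P under 0.05, and the dashed line marks equal change. At 0 hours 118 of 133 points lie below the line, and at 6 hours 103 do.

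The 10 ratios with the smallest adjusted p at 0 hours all fell. Gm12122 lies in Slit3, which encodes a secreted guidance ligand of Robo receptors. It was at 1.71, 1.98 and 1.04 FPKM in control, 0.325, 0.396 and 0.710 at 0 hours and 1.32, 1.44 and 1.08 at 6 hours, whereas Slit3 was at 27.4, 26.1 and 22.5 FPKM in control, 21.4, 24.3 and 25.3 at 0 hours and 20.6, 26.5 and 25.5 at 6 hours. The lncRNA was below control without overlap at 0 hours, whereas the Slit3 values overlapped, and Gm12122 stood at 6.16% ± 1.47 (SD, n = 3) of Slit3 in control, 1.98% ± 0.711 at 0 hours and 5.36% ± 1.11 at 6 hours. The log2 ratio change was -1.46 (SE 0.27) at 0 hours (limma adjusted p = 0.0185) and -0.18 (SE 0.27) at 6 hours (adjusted p = 0.728).

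Gm12701 lies in Ror1, a Wnt-binding receptor of the tyrosine kinase family. It was at 1.79, 1.44 and 1.26 FPKM in control, 0.275, 0.388 and 0.710 at 0 hours and 1.06, 0.872 and 1.54 at 6 hours, and its share of Ror1 was 41.2%, 34.5% and 33.6% in control, 6.54%, 13.7% and 19.7% at 0 hours and 27.4%, 18.4% and 23.7% at 6 hours. Every VILI 0 hours value lay below every control value. The log2 ratio change at 0 hours was -1.36 with an SE of 0.30 (limma adjusted p = 0.0185), and Ror1 itself gave -0.22 (SE 0.21).

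Gm43707 lies in Hs2st1, which encodes a sulfotransferase of heparan sulfate, and here the host was lower as well. Gm43707 was at 2.27, 2.80 and 2.30 FPKM in control, 0.600, 0.969 and 0.638 at 0 hours and 2.49, 1.12 and 1.35 at 6 hours, and Hs2st1 at 40.8, 39.2 and 42.7 FPKM in control, 31.2, 31.2 and 26.6 at 0 hours and 40.1, 27.3 and 20.5 at 6 hours. The level of the lncRNA changed by a log2 of -1.63 (SE 0.33) at 0 hours and that of the host by -0.46 with an SE of 0.20 (limma adjusted p = 0.306), which left a ratio change of -1.17 with an SE of 0.26 (adjusted p = 0.0185).

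Gm13380 lies in Arhgap21, a GTPase-activating protein. Its share of the host was 3.19%, 4.63% and 4.54% in control, 1.44%, 2.38% and 1.09% at 0 hours and 5.40%, 3.22% and 6.14% at 6 hours. The VILI 0 hours values were below all others, and the VILI 6 hours values overlapped control. The log2 ratio change was -1.18 (SE 0.31) at 0 hours (limma adjusted p = 0.0253) and 1.41 (SE 0.31) from 0 to 6 hours (adjusted p = 0.0689).

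Gm17105 in Dlg5, a scaffold gene of cell junctions, stood at 16.6%, 18.9% and 13.98% of the host in control, 9.14%, 8.36% and 6.63% in VILI 0 hours and 14.6%, 13.9% and 15.3% in VILI 6 hours. Gm43465 in Ptgfrn, a membrane protein gene, stood at 3.80%, 5.21% and 3.56% in control, 1.73%, 1.91% and 1.95% at 0 hours and 3.58%, 2.17% and 3.29% at 6 hours. In both, all VILI 0 hours libraries were below all control libraries, with log2 ratio changes of -0.91 with an SE of 0.20 and -1.09 with an SE of 0.26 (limma adjusted p = 0.0185 and 0.0213).

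**Figure D4:**
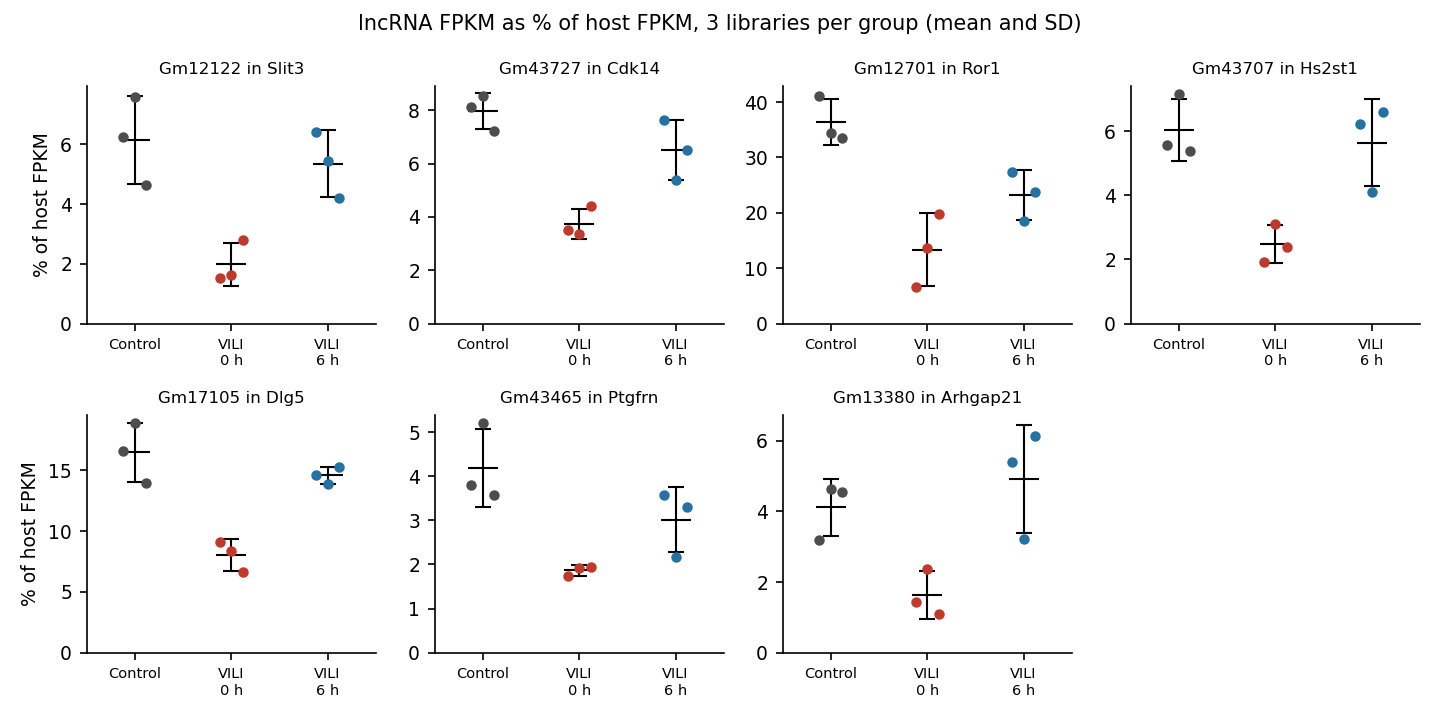
FPKM as a percentage of host FPKM for 7 of the 10 lncRNAs with the smallest adjusted p of the ratio at 0 hours; points are the 3 libraries of a group, bars are means and whiskers are SD, and each panel has its own scale from 0. In all 7 panels the 3 points of VILI 0 hours lie below the 3 points of control.

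Of the 5 hosts with 2 members each, 4 are given here with the log2 ratio changes of their lncRNAs at 0 hours. Cdk14, a cyclin-dependent kinase, held Gm10484 (-0.74 with an SE of 0.26) and Gm43727 (-1.03 with an SE of 0.22). Wars2, the mitochondrial tryptophan tRNA synthetase, held Gm42717 (-0.45 with an SE of 0.21) and Gm43024 (-0.56 with an SE of 0.25). Lrig2 held A530041M06Rik (-0.40 with an SE of 0.21) and Gm43696 (-0.55 with an SE of 0.21), and Rabgap1l held Gm37328 (-0.37 with an SE of 0.51) and Gm37529 (-0.68 with an SE of 0.30). All 8 estimates were negative, and the 2 members of a host shared its value, so they are not independent. Gm43727 (limma adjusted p = 0.0185) passed the adjustment, and A530041M06Rik and Gm37328 had adjusted p = 0.159 and 0.582.

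The median fall of the ratio was larger in long introns than in short ones. Among the 115 members within 1 intron, the 38 in the shortest introns (472 to 9072 bases) had a median log2 ratio change of -0.20 at 0 hours, with 3 lower and 1 higher by P under 0.05. The 38 in introns of 9294 to 37576 bases had a median of -0.57 and 20 lower, and the 39 in introns of 40019 to 273314 bases a median of -0.74 and 26 lower. Medians of the host change were -0.11, -0.06 and -0.18. In the shortest introns the median share of the host was 11.1%, 12.6% and 10.05% in control and 11.1%, 9.03% and 10.05% in VILI 0 hours, so the libraries overlapped. In the longest introns it was 9.36%, 9.51% and 7.72% in control and 4.06%, 5.68% and 5.45% in VILI 0 hours. It was 7.75%, 6.33% and 8.99% in VILI 6 hours, and VILI 0 hours lay below control without overlap. The ratios of the TEC pairs within 1 intron stepped likewise at 0 hours. Of 144 in introns of 1273 to 10653 bases, 32 were lower, with a median log2 ratio change of -0.31. Of 144 in introns of 10743 to 33446 bases, 53 were lower (median -0.42). Of 145 in introns of 33820 to 802597 bases, 95 were lower and 1 higher (median -0.76). The step was thus not particular to the members.

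Spearman's rank correlation of the ratio change with intron length was -0.54 across the 115 lncRNAs, as a description, since the points share libraries. It ran from -0.60 to -0.37 when each library was left out, weakest without VILI 0 hours library 1. Taken library by library against the control mean, the rank correlation was -0.61, -0.24 and -0.41 in the VILI 0 hours libraries. The rank correlation was -0.48 with the span of the host, -0.51 with the distance to the exon before and -0.41 with the distance to the exon after, and these lengths move together. It was -0.34 with the distance from the host start, -0.21 with the mean FPKM of the host, -0.01 with the exonic bases of the lncRNA and 0.07 with its mean FPKM. The host change had a rank correlation of -0.16 with intron length. The 433 TEC genes within 1 intron gave a rank correlation of -0.47 with intron length. Members in the first intron had a median of -0.59 (44 lncRNAs, median intron 29666 bases) and those in a later intron of -0.44 (71 lncRNAs, 13315 bases).

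**Figure D5:**
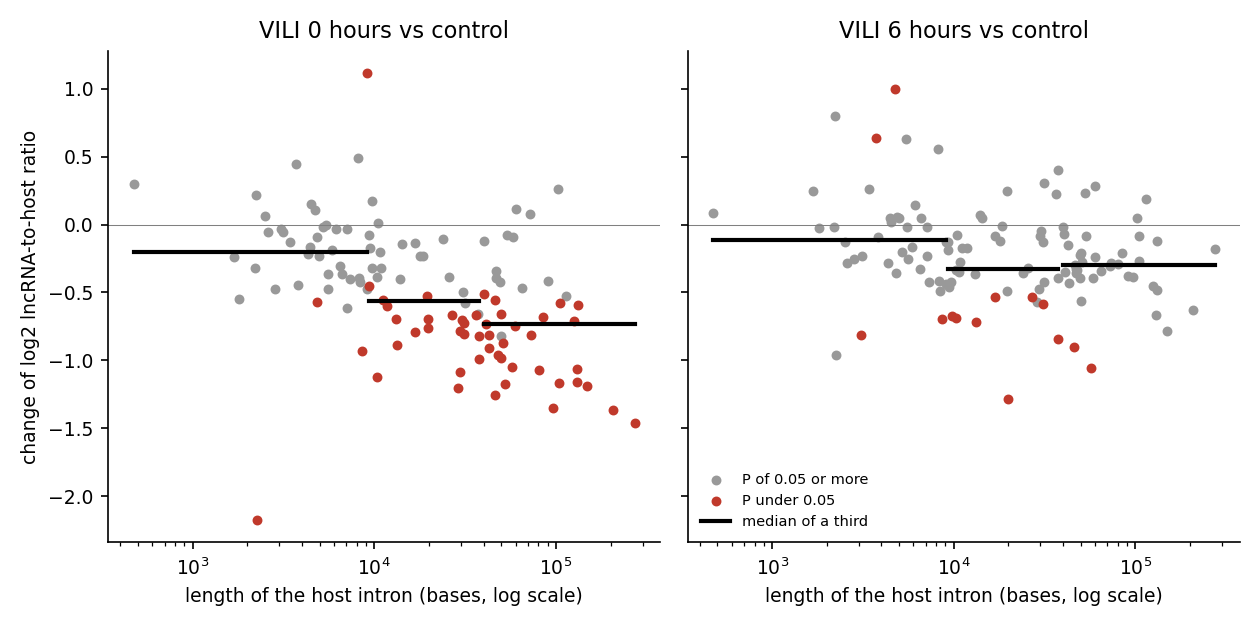
Change of the log2 lncRNA-to-host ratio against the length of the host intron (bases, log scale) for 115 lncRNAs, at 0 hours and at 6 hours against control; red points had P under 0.05, and black bars are medians of the 38 shortest, 38 middle and 39 longest introns. At 0 hours the bars step from -0.20 to -0.57 to -0.74, and at 6 hours they are at -0.11, -0.33 and -0.30.

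Gm44366, in an intron of 9072 bases of the orphan receptor gene Gpr19, had the only ratio that rose at 0 hours, from 4.65%, 28.7% and 10.2% in control to 50.2%, 21.0% and 35.3% in VILI 0 hours, with overlapping groups (log2 change 1.12 with an SE of 0.40, adjusted p = 0.0636) at levels under 1 FPKM. The number of ratios that rose in limma at an unadjusted P under 0.05 was 0 without control library 1, without VILI 0 hours library 1 or with the highest host row, 3 without VILI 0 hours library 2 and 2 without VILI 0 hours library 3. In a long intron (96921 bases), Gm20500 in Shroom3, an actin-binding gene of epithelial shape, went from 5.95%, 3.79% and 5.38% to 0.870%, 2.86% and 2.15% (-1.35 with an SE of 0.41, adjusted p = 0.0370).

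Where a host changed, its lncRNA was read beside it. Magi3, a junction scaffold, was at 57.4, 52.9 and 64.5 FPKM in control, 27.1, 31.2 and 29.7 at 0 hours and 52.4, 31.1 and 24.8 at 6 hours. Gm42702 in its first intron was at 4.47, 4.55 and 4.10 FPKM in control, 0.943, 2.05 and 1.62 at 0 hours and 3.48, 2.73 and 2.58 at 6 hours. Host and lncRNA were both low at 0 hours, with log2 changes of -0.99 (SE 0.23) and -1.51 with an SE of 0.27 (limma adjusted p = 0.0939 and 0.154), and that of Gm42702 was the smallest adjusted p of all member levels. Its ratio did not pass (log2 change -0.53 with an SE of 0.27, adjusted p = 0.158).

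The calcium sensor gene Ncald was at 26.9, 34.1 and 33.2 FPKM in control, 24.7, 17.8 and 16.5 at 0 hours and 23.0, 17.7 and 13.7 at 6 hours, and Gm15940 at 2.52, 3.44 and 2.59 FPKM in control, 1.08, 0.996 and 0.411 at 0 hours and 2.44, 0.629 and 0.821 at 6 hours. Both were below control without overlap at 0 hours, the lncRNA by more (-1.75 against -0.69 on the log2 scale, limma adjusted p of the ratio = 0.0457). Gm3364 in Ldb2, a cofactor of LIM-domain proteins, had the largest fall of a member level, -1.81 (SE 0.45), beside -0.65 (SE 0.20) for its host (adjusted p = 0.232 and 0.168).

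Ptpn22, a tyrosine phosphatase of lymphoid cells, was at 3.75, 3.59 and 2.89 FPKM in control, 12.1, 6.01 and 6.95 at 0 hours and 3.79, 9.81 and 11.4 at 6 hours, while Gm15472, which lies in it, was at 0.986, 0.857 and 0.798 FPKM in control, 1.54, 0.896 and 1.54 at 0 hours and 0.591, 2.32 and 2.61 at 6 hours. At 0 hours its ratio changed by -0.70 with an SE of 0.24 (adjusted p = 0.0506). Neutrophil markers were also high in these groups (above), and their part in the Ptpn22 values was not tested.

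Of the other hosts, Tmem51 was higher at 6 hours and Atp2b2 was lower at both times (unadjusted P under 0.05). Tmem51, a membrane protein gene, was at 5.32, 4.82 and 4.31 FPKM in control, 3.53, 4.30 and 3.62 at 0 hours and 7.34, 5.76 and 9.39 at 6 hours (log2 change at 6 hours 0.60 with an SE of 0.19, limma adjusted p = 0.140), and Gm13053 stayed under 1 FPKM. Atp2b2, a calcium pump of the plasma membrane, was at 3.31, 2.99 and 2.79 FPKM in control, 1.39, 2.58 and 1.39 at 0 hours and 2.77, 1.45 and 1.57 at 6 hours, and Gm44167 at 0.907, 0.739 and 1.10 FPKM in control, 0.127, 0.546 and 0.402 at 0 hours and 0.668, 0.304 and 0.218 at 6 hours. Both were lower at 0 hours (-0.79 with an SE of 0.30 for the host and -1.26 with an SE of 0.49 for the lncRNA, adjusted p = 0.245 and 0.401), without overlap with control. At 6 hours both also lay below control without overlap, with log2 changes of -0.68 (SE 0.30) for Atp2b2, at P under 0.05, and -1.12 (SE 0.49) for Gm44167, which did not pass (adjusted p = 0.242 and 0.378).

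Snrk, a kinase related to AMPK, was at 34.9, 33.4 and 33.8 FPKM in control, 47.9, 42.4 and 49.95 at 0 hours and 32.8, 35.03 and 30.9 at 6 hours, while Gm47121 was at 4.46, 3.80 and 4.23 FPKM in control, 4.06, 3.02 and 4.998 at 0 hours and 2.61, 2.39 and 3.64 at 6 hours. The host was higher at 0 hours alone, and the lncRNA values at 0 hours overlapped control, so the ratio fell (-0.53 with an SE of 0.24, limma adjusted p = 0.119). Lrrc8c, a subunit of the volume-regulated anion channel, was at 22.5, 23.5 and 20.1 FPKM in control, 25.7, 20.8 and 20.6 at 0 hours and 26.0, 29.6 and 30.9 at 6 hours, and C230066G23Rik at 2.54, 2.46 and 1.96 FPKM in control, 1.46, 1.19 and 1.68 at 0 hours and 2.06, 1.70 and 2.52 at 6 hours. Here the host changed at 6 hours (0.39 with an SE of 0.12, adjusted p = 0.141) and the lncRNA at 0 hours (-0.65 with an SE of 0.23, adjusted p = 0.363).

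From 0 to 6 hours Sergef rose (0.41 with an SE of 0.15, limma adjusted p = 0.415) and Pnkd fell (-0.53 with an SE of 0.21, adjusted p = 0.440). Their lncRNAs Gm45311 and Gm29358 had log2 changes of 0.03 with an SE of 0.35 and -0.36 with an SE of 0.28, with overlapping groups. Cd38, an enzyme that consumes NAD, was at 29.4, 21.7 and 26.8 FPKM in control, 24.0, 19.9 and 17.7 at 0 hours and 15.0, 15.1 and 17.0 at 6 hours, and Gm16014 at 1.61, 1.37 and 1.97 FPKM in control, 0.734, 0.751 and 0.697 at 0 hours and 1.10, 1.16 and 1.39 at 6 hours. Cd38 was lowest at 6 hours and its lncRNA at 0 hours, each below control without overlap.

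At 6 hours the members were closer to control. Of 136 levels, 15 were lower and 1 (Gm44982) was higher at an unadjusted P under 0.05, where 7.51% of all rows were lower and 5.73% higher, and none passed the adjustment (lowest adjusted p 0.210, where 0.0751% of all rows passed). The median log2 change was -0.33, and 116 of 136 estimates were negative, against a median of -0.08 over all rows. The 521 TEC genes gave 84 lower, 10 higher and a median of -0.27. The 453 lincRNAs gave 77 lower, 14 higher and a median of -0.30, near that of the members. Of the 128 hosts 20 were lower and 8 higher, where 12.2% of all genes were lower and 8.17% higher, and with centred libraries 10 were lower and 15 higher. The adjustment was passed by 1 host, and by 0.702% of all genes, and without VILI 6 hours library 1 by 30 hosts, 6 levels and 3 ratios. Without any other library it was passed by 0 of each. For the ratio, 13 of 133 were lower and 2 higher, where 11.9% of all 639 pairs passed in either direction and 1.88% were higher, with a median of -0.25 and none past the adjustment (lowest adjusted p 0.130, where 0.313% of pairs passed). VILI 6 hours library 1 differed from the other 2 in this comparison. Without it the counts were 35 for the level, 54 for the host and 25 for the ratio, in place of 16, 28 and 15. Without VILI 6 hours library 2 they were 5, 16 and 9, without VILI 6 hours library 3 the first 2 were 8 and 14, and without control library 2 they were 5, 14 and 9. Without control library 1 the level count was 7, and without control library 3 the host count was 13.

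Among ratios with P under 0.05, groups without overlap and at least 0.5 FPKM in a group, those of Gm45823 and Gm44265 fell most at 6 hours. Gm45823 in Tecr, a reductase of very-long-chain fatty acid synthesis, stood at 3.22%, 5.80% and 3.78% of the host in control, 2.89%, 2.504% and 2.03% in VILI 0 hours and 2.27%, 1.01% and 1.54% in VILI 6 hours (log2 ratio change at 6 hours -1.28 with an SE of 0.31, limma adjusted p = 0.130). Gm44265 in Eefsec, the elongation factor of selenocysteine, stood at 28.3%, 36.3% and 42.8% in control, 9.02%, 23.7% and 17.5% at 0 hours and 22.02%, 14.1% and 11.9% at 6 hours (adjusted p = 0.171). Both were below control without overlap at 0 and 6 hours. Gm13840 in the focal adhesion gene Pxn and Gm29322 in the pseudokinase gene Peak1 followed, with log2 changes of -0.84 (SE 0.27) and -0.72 (SE 0.27). The Gm13840 change was -0.56 without VILI 6 hours library 3, and that of Gm29322 did not pass P under 0.05 without control library 1 (-0.51), control library 2 (-0.64) or VILI 6 hours library 3 (-0.68).

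At 6 hours 2 ratios rose. Gm28941 in Mff, a receptor of mitochondrial fission, stood at 9.21%, 6.89% and 7.195% in control, 10.02%, 6.05% and 9.30% at 0 hours and 15.0%, 17.8% and 14.1% at 6 hours, where all 3 values were above those of the other groups (1.001 with an SE of 0.24, limma adjusted p = 0.130). It was at 3.22, 2.73 and 2.90 FPKM in control, 3.22, 2.45 and 2.23 at 0 hours and 3.27, 4.92 and 4.36 at 6 hours, while Mff was at 34.96, 39.6 and 40.2 FPKM in control, 32.1, 40.5 and 24.0 at 0 hours and 21.8, 27.6 and 30.8 at 6 hours. Gm44982 in Acadsb, an acyl-CoA dehydrogenase of branched-chain amino acid breakdown, stood at 11.0%, 10.9% and 6.55% in control, 17.2%, 9.19% and 13.3% at 0 hours and 12.8%, 14.6% and 16.7% at 6 hours (0.64 with an SE of 0.27, adjusted p = 0.368). The change of the Gm44982 ratio was 0.40 without control library 3, 0.64 without VILI 6 hours library 2 and 0.54 without VILI 6 hours library 3, and did not pass P under 0.05 in any of them, nor with a replicate block. Gm43914 in Clec9a, a dendritic cell receptor, had the lowest level change at 6 hours (-1.58 with an SE of 0.41, adjusted p = 0.218), from 1.29, 1.32 and 1.90 FPKM in control to 0.209, 0.869 and 0.393 at 6 hours, while Clec9a was at 1.35, 3.20 and 1.29 FPKM in control and 0.4995, 1.496 and 1.31 at 6 hours.

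Between 0 and 6 hours after ventilation most estimates were positive (102 of 136). Of 136 levels, 20 were higher and 2 (Gm43914 and Gm44366) lower at P under 0.05, where 3.82% of all rows were higher and 3.58% lower, with a median log2 change of 0.24 and none past the adjustment (lowest adjusted p 0.440, where 0.0214% of all rows passed). The 521 TEC genes gave 73 higher, 4 lower and a median of 0.26, and the lincRNAs gave 8 higher, 29 lower and a median of -0.15. Of the hosts 6 were higher and 6 lower, against 5.06% and 4.94% of all genes, and with centred libraries 8 were higher and 4 lower. For the ratio 25 of 133 were higher and 3 lower, against 19.1% and 0.939% of all pairs, with a median of 0.26 and a lowest adjusted p of 0.0689, where 0.156% of all pairs passed. The counts were 13 for the level and 14 for the ratio without VILI 6 hours library 3, in place of 22 and 28, and for the host 25 without VILI 6 hours library 1 and 5 without VILI 0 hours library 2, in place of 12. The VILI 0 hours libraries enter both this comparison and that with control.

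Gm12122 in Slit3 and Gm13380 in Arhgap21 had the largest log2 rises of the level among those with groups that did not overlap, 1.30 (SE 0.34) and 1.35 (SE 0.34), followed by Gm20500 in Shroom3 and Gm12701 in Ror1 (1.21 and 1.21). Gm28586 in Nck1, an adaptor of tyrosine kinase signalling, had a ratio of 3.98%, 2.48% and 4.27% at 0 hours and 9.87%, 6.20% and 6.98% at 6 hours (1.06 with an SE of 0.34, limma adjusted p = 0.140, and 2.06 with the highest host row in place of the host sum). The 3 ratios that fell were those of Gm44366 to Gpr19, Gm45148 to the zinc finger gene Zfp444 (-0.59 with an SE of 0.23, adjusted p = 0.201) and Gm20444 to Rnf26, which was chosen after its values were seen and is listed at 0 in VILI 6 hours library 2. With the highest host row in place of the sum, that of Gm45148 turned to 0.36. It also did not pass P under 0.05 without VILI 0 hours library 3 (-0.49) or VILI 6 hours library 1 (-0.39), and that of Gm44366, -1.25 in the fit of all libraries, did not pass without VILI 6 hours library 3 (-0.996) or with the highest host row (-0.32). The rank correlation of the ratio change with intron length was -0.26 at 6 hours against control, and -0.01 without VILI 6 hours library 2. From 0 to 6 hours it was 0.31, and 0.07 without VILI 0 hours library 1.

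Genes that remove intron RNA were read in the same libraries. Of 29 genes of lariat debranching and the nuclear exosome, 1 was higher and 3 lower at 0 hours, with a median log2 change of -0.05 and summed FPKM of 440 to 448 in control and 429 to 446 in VILI 0 hours. Over all 19378 genes tested 6.81% were higher and 9.35% lower at 0 hours, so the share of these genes that changed was near that of all genes. The higher was Exosc4 (5.27 ± 0.0942 FPKM in control and 6.53 ± 0.778 at 0 hours, SD, n = 3), and the lower were Exosc1, Dis3 and Zcchc7, subunits and a cofactor of the RNA exosome. At 6 hours 1 was higher and none was lower, against 8.17% and 12.2% of all genes. Of 11 nuclear-retained lncRNAs 7 could be tested, and Neat1 (402 ± 46.6 FPKM in control and 274 ± 88.6 at 0 hours) and Airn (11.8 ± 1.09 and 6.80 ± 1.59) were lower and none was higher at 0 hours, with a median of -0.31, against -0.07 over all genes. At 6 hours Tug1 was lower and none was higher. Malat1, a lncRNA of nuclear speckles, gave a log2 change of -0.29 (limma adjusted p = 0.746).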

How the data were processed

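Lung RNA was sequenced after rRNA depletion in 3 control, 3 VILI 0 hours and 3 VILI 6 hours libraries. The authors deposited FPKM per transcript, made with TopHat2 2.0.9, Bowtie2 2.0.6 and Cuffdiff 2.1.1 on GRCm38, per the labels and the submitters' processing notes. Per the study's methods, mapped reads were also assembled into transcripts with Scripture and Cufflinks, guided by the reference, before FPKM were computed. A fragment inside a host intron could thus be assigned to a lncRNA annotated there or to an assembled transcript. No column belonged to no sample (0 columns), and the files hold no read counts. The read totals in the study's mapping statistics entered no calculation here, and its share of spliced reads is given in words only.

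Gene types, hosts, introns and transcript sequences came from GENCODE M21 (GRCm38). The host was the shortest coding gene of the same strand that contains the lncRNA, and its FPKM was the sum of its rows. Values were analysed as log2(FPKM + 0.1), and fold changes on this scale understate those of low genes. Rows with a mean of at least 0.1 FPKM entered limma 3.58.1 (R 4.3.3, empirical Bayes with a trend), in 1 fit per measure over all 9 libraries with the group as the only term: 37300 rows for the level, 19378 summed genes for the host and 639 pairs for the ratio. The threshold was an unadjusted P under 0.05, as in the study, with Benjamini-Hochberg adjusted p-values beside it. A permutation test of 3 libraries against 3 cannot go below 0.1, so p-values come from the limma model. Figures and descriptive values used Python 3.11.15 with pandas 2.3.3, scipy 1.17.1 and matplotlib 3.10.9.

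Members and gene lists were chosen with earlier results of these data known. The lncRNAs named were those with the 10 smallest adjusted p under 0.05, the 10 highest means, up to 4 largest rises and falls of the ratio or level per comparison among those with P under 0.05, no overlap and at least 0.5 FPKM in a group, and those in the 3 hosts with the largest rise and fall per comparison. Lists were intron RNA turnover, nuclear-retained lncRNAs and lung cell markers. On simulated data for VILI 0 hours against control, with a log2 rise of 2 in a seeded set, 83.5% of 200 changed rows were recovered among 37300 for the level, 99% of 200 among 19378 for the host and 100% of 127 among 639 for the ratio. The seeded rises were larger than most changes reported here, so these shares do not describe the recovery of changes of that smaller size. Alternatives covered the pseudocount, the filter, the libraries fitted, centring, the trend, the host value and leaving out each library. Same-numbered libraries of different groups correlated between -0.159 and 0.026 in their deviations from the group means, so the replicate numbers were not used as pairs. The authors' own comparisons were not used here. Results on a few hosts and their lncRNAs are not reported here.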

Additional observations from a re-analysis of the deposited data

Results flagged for a closer look

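The ratio of Gm16014 to its host Cd38 fell at 0 hours (unadjusted P under 0.05) and did not pass at 6 hours against control, and it is given here because its log2 ratios, taken with the pseudocount, lay below all control libraries at 0 hours and above all of them at 6 hours. Gm16014 stood at 5.49%, 6.31% and 7.35% of Cd38 in control, at 3.06%, 3.78% and 3.94% at 0 hours and at 7.29%, 7.69% and 8.15% at 6 hours. The 0 hours libraries lay below every control library, and in these percentages, taken without the pseudocount, the 6 hours libraries overlapped control at their lowest value. The log2 ratio change was -0.73 at 0 hours and 0.31 with an SE of 0.21 at 6 hours against control, and 1.03 with an SE of 0.21 from 0 to 6 hours (limma adjusted p = 0.0689, higher in 3 of 3 libraries). Both times are compared with the same control libraries.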

How the results depend on the processing

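The number of changed ratios at 0 hours (57 of 133, 56 of them lower) ran from 41 to 58 when each library was left out. It was 38 with a pseudocount of 1. The 31 adjusted calls ranged from 0 to 36 when each library was left out. They were also 11 with a replicate block, 13 with a pseudocount of 1 and 9 with the highest host row in place of the sum. With a pseudocount of 1 the median log2 change was -0.31 for the level and -0.20 for the ratio at 0 hours, and -0.17 and -0.10 at 6 hours, and the ratio changes of Gm12122 and Gm12701 at 0 hours were -0.70 and -0.61. Those of Gm43707, Gm13380, Gm17105 and Gm43465 at 0 hours also shrank, to -0.54, -0.45, -0.40 and -0.74. Leaving out each library, the level counts ran from 35 to 60 at 0 hours, from 5 to 35 at 6 hours and from 13 to 27 between both times. The host counts ran from 13 to 29, from 13 to 54 and from 5 to 25, and the ratio counts at 6 hours and between both times from 9 to 25 and from 14 to 33. With a minimum mean of 1 FPKM, which leaves 83 levels and 80 ratios to count, the level counts were 33 at 0 hours and 10 at 6 hours, and the ratio counts were 34 and 8. The host count at 0 hours was 32 with only the 6 libraries compared, and at 6 hours it was 17 with the highest host row; the cause was not tested. With the highest host row, the ratio change of Gm45148 to Zfp444 between both times turned to 0.36, those of Gm28941 (0.97), Gm44982 (0.68) and Gm13840 (-0.75) at 6 hours stayed about as large without passing P under 0.05, and that of Gm44366 between both times shrank to -0.32.

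Same-numbered libraries did not deviate together, so the replicate block is no paired analysis. With the replicate block the level counts were 48, 11 and 16, the host counts 20, 21 and 12 and the ratio counts 50, 12 and 21, at 0 hours, at 6 hours and between both times. Restricting the ratio at 0 hours to lncRNAs within 1 intron, chosen after seeing the data, gave 50 changed. Of the results on named lncRNAs under all alternatives, 550 kept direction and side of the threshold, 41 kept direction only and 1 turned. The files hold no read counts, and no counting error was computed for the many lncRNAs near 1 FPKM.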
